A study of Mus musculus with 30 samples.

Results

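p53 and 31 of its direct target genes, 32 genes in all, were followed in C2C12 myotubes, multinucleated muscle cells that form by fusion of a mouse myoblast line. The genes were taken by name as established p53 targets. The rule for membership uses no measured value, though the list was drawn up with earlier results of these data known. All 32 were found among the 55487 genes counted, and all 32 were among the 15907 genes with enough counts to be tested. The 30 libraries came from wild-type cells of a single line that had been differentiated for 4 days in low glucose medium with 2% horse serum and were then kept for 4 more days in 1 of 5 media, 8 days in all, with 6 libraries per group. The 2% HS group stayed in that serum-containing medium. Serum was left out of the other 4 groups, which received no addition (SD), 0.1 µM metformin (MET), 0.5 µM leucine (LEU), or both at these doses (MET+LEU). Serum deprivation is the atrophy stimulus of the study, and MET+LEU is the treatment tested against it. The labels give 6 replicates in each group and do not say whether they were separate cultures, so p-values measure the spread between these samples, part of which may be technical.

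p53, encoded by Trp53, is a transcription factor that binds as a tetramer to paired decamer sequences in DNA and turns on genes for cell cycle arrest, cell death, DNA repair and metabolism. Its protein is normally kept scarce by Mdm2, a ubiquitin ligase that marks it for degradation, and held inactive by the related Mdm4, and because Mdm2 is itself a p53 target the pair forms a feedback loop. Control of p53 lies largely in the stability and modification of the protein, so the Trp53 transcript is not a measure of p53 activity. In muscle, p53 and its target Cdkn1a, which encodes the cell cycle inhibitor p21, are known for their part in cell cycle exit, in atrophy and in cellular senescence.

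Libraries held 12784960 to 19604103 counts on genes, and values are given as CPM, the count per 1000000 counts of a library after TMM scaling, which corrects for a few genes taking a large share. A count of 0 allows up to 3 counts, or 0.152 to 0.243 CPM, which covers counting error only. Groups were compared with edgeR's quasi-likelihood test in a single fit of all libraries, adjusted p is the Benjamini-Hochberg value over all 15907 genes, and a gene was called when it was under 0.05. A difference is a log2 fold change with its standard error (SE). The myotube markers were abundant, with a summed level of 32286 to 45574 CPM over 12 genes, whereas endothelial markers summed to at most 1.14 CPM and leukocyte markers to at most 4.65 CPM. Dividing-cell markers summed to 141 to 268 CPM over 10 genes. The MET+LEU replicate 6 library stood apart, with 5.85% of its counts on nuclear and 7.64% on mitochondrial ribosomal RNA genes, against at most 1.96% and 0.76% in the other 29 libraries. It held the highest or the lowest MET+LEU value for 17 of the 32 genes (53.1%) and for 57.7% of all genes tested. Some results that rest on MET+LEU are therefore also given without it, and values printed only with it can shift as well. In bulk RNA, fewer cells of a type and less RNA per cell cannot be told apart.

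Of the 32 genes, 24 had a RefSeq promoter window, 250 bases before to 50 bases after an annotated start in the GRCm38.p6 assembly. The p53 decamer without a mismatch, a motif that reads the same on both strands, was found in the windows of 8 of these 24 genes (33.3%), against 9.55% of the 27025 genes that have a window. These 8 were Trp53, Mdm2, Ccng1, Bax, Aen, Gadd45a, Polk and Ei24. A full p53 site, taken as a pair of decamers at most 13 bases apart with at most 2 mismatches and both core bases of each decamer intact, lay in 3 of the 24 windows (12.5%), those of Ccng1, Bax and Gadd45a, against 4.71% of all genes. Full sites contain the single decamers, so the counts overlap. The genes were listed as known p53 targets, so their share is not independent of the motif, and a match is a description of the letters, not a measured binding site. The 3 windows are shown up to the start, beside that of Cdkn1a, since these genes showed unlike responses to serum deprivation. Cdkn1a belongs to a second list of p53 targets, described below, of which 8 of 34 windows (23.5%) held a full site. The other windows of that list are not shown. The decamers are in capitals, with any spacer between them in lower case.
Ccng1, GRCm38.p6 chr11:40755287-40755536, minus strand: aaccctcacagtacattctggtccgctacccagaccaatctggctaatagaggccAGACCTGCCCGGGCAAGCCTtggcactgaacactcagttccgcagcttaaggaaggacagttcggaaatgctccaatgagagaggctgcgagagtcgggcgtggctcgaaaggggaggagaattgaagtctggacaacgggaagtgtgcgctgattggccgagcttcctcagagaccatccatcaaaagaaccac
Bax, GRCm38.p6 chr7:45466899-45467148, minus strand: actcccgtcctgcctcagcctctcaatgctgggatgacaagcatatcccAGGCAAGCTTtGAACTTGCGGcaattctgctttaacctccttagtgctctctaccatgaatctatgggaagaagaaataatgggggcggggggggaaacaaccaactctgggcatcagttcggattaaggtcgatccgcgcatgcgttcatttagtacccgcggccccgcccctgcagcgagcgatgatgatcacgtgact
Gadd45a, GRCm38.p6 chr6:67037408-67037657, minus strand: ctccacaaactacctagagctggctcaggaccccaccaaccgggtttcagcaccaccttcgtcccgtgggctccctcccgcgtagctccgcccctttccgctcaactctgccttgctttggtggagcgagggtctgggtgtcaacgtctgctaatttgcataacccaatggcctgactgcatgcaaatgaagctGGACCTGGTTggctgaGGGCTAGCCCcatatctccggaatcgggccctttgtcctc
Cdkn1a, GRCm38.p6 chr17:29090729-29090978, plus strand: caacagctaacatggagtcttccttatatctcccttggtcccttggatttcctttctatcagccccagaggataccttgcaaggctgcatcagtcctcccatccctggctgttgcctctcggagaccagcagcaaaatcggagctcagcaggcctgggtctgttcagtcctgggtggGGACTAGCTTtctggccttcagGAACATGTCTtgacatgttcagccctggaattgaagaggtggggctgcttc

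The sites matched with 1 mismatch in Ccng1, 2 in Bax, 2 in Gadd45a and 0 in Cdkn1a, and their spacers were 0, 1, 6 and 12 bases long. The search kept the pair with the fewest mismatches. In Cdkn1a the second marked decamer is also followed directly by another decamer with 1 mismatch, left in lower case. A link between these sites and the responses was not tested. With serum deprivation Ccng1, Bax and Cdkn1a rose, whereas Gadd45a differed by 0.00 ± 0.06 (log2, SE).

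Compared between genes per kb of exon, the 32 levels spanned from Phlda3, a repressor of Akt signalling, at 112 CPM per kb, to Perp, a membrane protein of desmosomes, at 0.234 CPM per kb. Below Phlda3 came Ccng1 with 81.8, Gadd45a with 79.5, Eda2r with 67.9 and Plk2 with 45.1 CPM per kb, means over all 30 libraries. Mdm2 stood at 27.6, Trp53 itself at 18.2 and Mdm4 at 9.51 CPM per kb. Perp had 2 to 12 counts per library and Sfn 7 to 33, so that these genes, together with Pidd1 at 28 to 73 counts, were the least precisely measured. The spread between libraries of a group had a median coefficient of variation of 7%, ranging from 1.95% for Mdm4 in LEU to 59% for Perp in 2% HS.

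**Figure D1:**
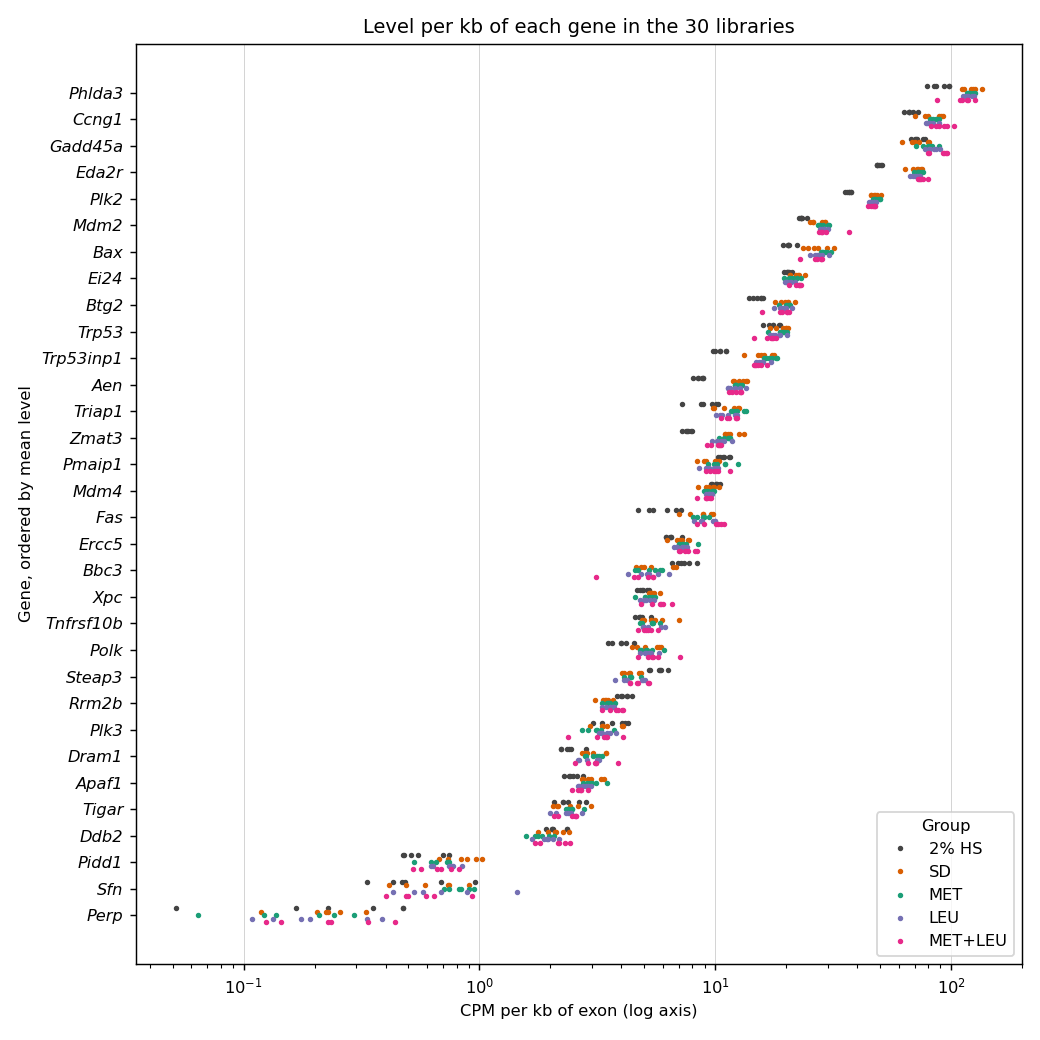
Level of each of the 32 genes in every library, in CPM per kb of exon on a log axis, coloured by group and ordered by the mean over all libraries. Levels run from Phlda3 with a mean of 112 to Perp with 0.234 CPM per kb, and in many genes the 2% HS libraries lie at the low end.

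Serum deprivation raised most of these genes. In SD vs. 2% HS, 18 of the 32 genes were upregulated (56.2%; 13.9% of all genes tested were), 4 were downregulated (12.5%; 13.9% of all genes) and 10 did not pass the test, so that 22 (68.8%; 27.8% of all genes) were called. The median log2 fold change was 0.22 over the 32 genes and 0.00 over all genes. In 10 genes (31.2%) the lowest SD library exceeded the highest 2% HS library, against 6.17% of all genes, and in 2 (6.25%) the highest SD library was under the lowest 2% HS library, against 7.42%. An unadjusted p under 0.05 was found for 25 genes (78.1%; 37.9% of all genes). Across the 5 groups, 2% HS had the lowest mean in 22 of the 32 genes, against 33.2% of all genes. The size was moderate, since no called gene differed by more than 0.62 on the log2 scale, which is a rise of 53.8%.

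**Figure D2:**
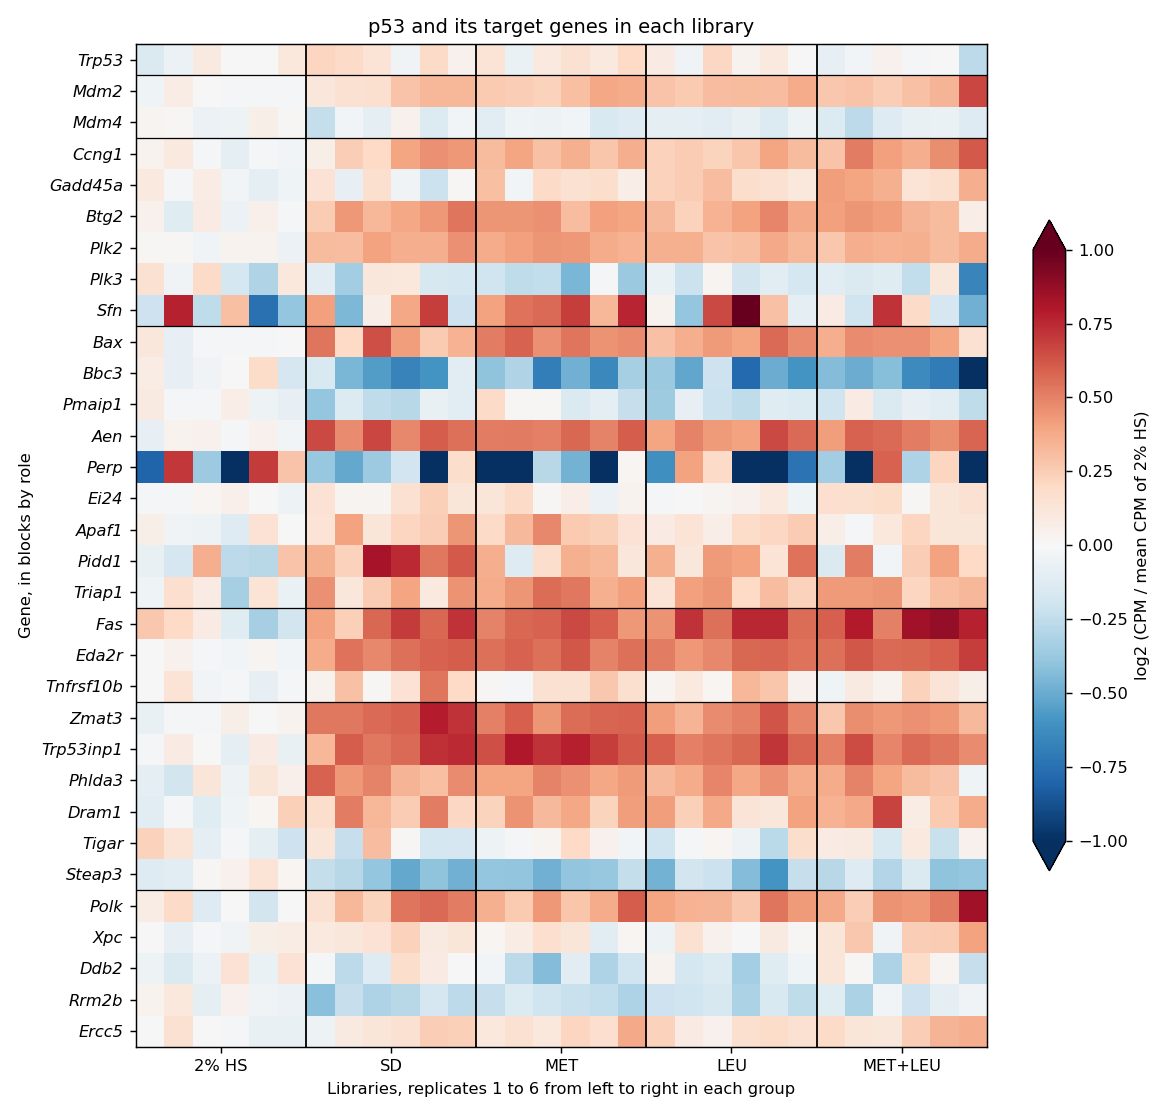
Each cell is the log2 ratio of a library's CPM to the mean CPM of 2% HS for that gene, with libraries in columns by group and genes in rows by role (Trp53, its inhibitors, growth arrest, apoptosis, receptors, metabolism and signalling, DNA repair). Zmat3, Trp53inp1, Aen, Fas and Eda2r are red in the 24 serum-free libraries, Bbc3, Steap3 and Rrm2b are mostly blue there, and values beyond 1 or -1 take the end colours.

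Fibroblast markers moved with serum deprivation as well: 5 of the 5 tested were called higher in SD, and the summed level of all 6 ranged over 2986 to 3297 CPM in 2% HS and over 5202 to 5519 CPM in SD. Of the unfused myoblast markers, 4 of 5 were lower, with sums of 1056 to 1134 CPM in 2% HS and 802 to 962 CPM in SD. Dividing-cell markers were called higher in 2 of 10, with overlapping sums of 196 to 234 and 196 to 268 CPM. Of the 12 myotube markers 2 were higher and 4 lower, and their summed level of 35390 to 38038 CPM in SD lay below that of 42824 to 45574 CPM in 2% HS. All libraries came from a single myoblast line, so these marker transcripts do not show that fibroblasts were present. The part of these marker changes in the rise of p53 target genes was not tested.

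Trp53 had 64.4, 70.8 and 76.1 CPM as its lowest, median and highest value in 2% HS and 69.2, 79.5 and 82.3 CPM in SD. The groups overlapped, and the difference of 0.13 ± 0.05 missed the threshold (adjusted p = 0.0571), though it passed without 2% HS replicate 3 or 6 (0.14), SD replicate 4 (0.15) or 6 (0.14), MET replicate 2 (0.13) or MET+LEU replicate 6 (0.12). Mdm2 was upregulated: its levels were 115, 117 and 125 CPM in 2% HS and 128, 138 and 149 CPM in SD, without overlap, a difference of 0.23 ± 0.05 (adjusted p = 0.000248). Mdm4 overlapped between the groups, at 142, 149 and 155 CPM in 2% HS and 126, 142 and 153 CPM in SD, and its difference was -0.08 ± 0.04 (adjusted p = 0.138, called at -0.10 without SD replicate 4). Of the core loop, therefore, the Mdm2 transcript passed the test, whereas those of p53 and Mdm4 did not. On GRCm38, Trp53 (ENSMUSG00000059552) lies at chr11:69580359-69591873 on the plus strand, Mdm2 (ENSMUSG00000020184) at chr10:117688875-117710758 and Mdm4 (ENSMUSG00000054387) at chr1:132959484-133030561, both on the minus strand.

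Genes of growth arrest and the cell cycle rose in 3 of 6 cases. Plk2, a polo-like kinase, had 159, 166 and 169 CPM in 2% HS and 205, 212 and 227 CPM in SD, a difference of 0.37 ± 0.03 (adjusted p = 1.01e-13). Btg2, an antiproliferative adaptor of the mRNA deadenylase complex, went from 38.1, 41.9 and 43.9 CPM to 49.3, 55.0 and 59.8 CPM, 0.40 ± 0.05 higher (adjusted p = 3.68e-08). In both genes every SD library exceeded every 2% HS library. Ccng1, which encodes cyclin G1, a partner of the phosphatase that acts on Mdm2, rose by 0.30 ± 0.05 (adjusted p = 1.87e-05) from 222, 234 and 253 CPM to 246, 296 and 324 CPM, and its lowest SD library fell within the range of 2% HS. Gadd45a, a stress sensor of DNA damage, did not pass, with a mean of 127 ± 6.58 CPM in 2% HS and 128 ± 12.5 CPM in SD (SD, n = 6) and a 95% interval of -0.11 to 0.12. Plk3, at -0.08 ± 0.10, and the scarce Sfn, or 14-3-3 sigma, at 0.20 ± 0.28, did not pass.

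Among 9 genes of apoptosis and its control, receptors aside, 6 rose and 2 fell. Aen, an apoptosis-enhancing nuclease, rose from 46.9, 50.0 and 51.2 CPM to 69.0, 74.3 and 79.0 CPM, by 0.58 ± 0.05 (adjusted p = 1.66e-14). Bax, which opens pores in the mitochondrial outer membrane, rose from 30.6, 32.1 and 35.1 CPM to 37.2, 42.2 and 50.4 CPM, by 0.41 ± 0.06 (adjusted p = 2.33e-07). For both, the groups did not overlap. In Bax, 12.2% of the exon bases are shared with Gm45808 on the same strand, so some of its reads could have been assigned to either gene or left out. The other 4 overlapped between groups: Pidd1, the scaffold of the caspase-2 complex, at 0.56 ± 0.15 (adjusted p = 0.0026), Triap1, an inhibitor of apoptosis in mitochondria, at 0.32 ± 0.08 (adjusted p = 0.00345), Apaf1, the core of the apoptosome, at 0.27 ± 0.06 (adjusted p = 0.000797), and Ei24, a protein of the endoplasmic reticulum, at 0.12 ± 0.04 (adjusted p = 0.0207). The Ei24 call was lost without SD replicate 5 (0.09) and without 2% HS replicate 6 (0.11).

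The genes that fell encode the BH3-only proteins of the list, PUMA and NOXA, which release Bax from its guardians. Bbc3 (PUMA) had 13.9, 15.4 and 17.7 CPM in 2% HS and 9.80, 10.96 and 14.4 CPM in SD, and fell by 0.41 ± 0.10 (adjusted p = 0.00214). Pmaip1 (NOXA) had 28.1, 29.6 and 31.7 CPM in 2% HS and 22.7, 26.1 and 28.2 CPM in SD, and fell by 0.21 ± 0.06 (adjusted p = 0.0103). The ranges of the groups overlapped at the margin in both genes. Perp differed by -0.27 ± 0.40, an estimate too imprecise at this depth to show a change of this size.

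All 3 receptor genes of the list were upregulated. Eda2r, a receptor of ectodysplasin A2, had 285, 289 and 300.4 CPM in 2% HS and 375, 425 and 443 CPM in SD, a rise of 0.53 ± 0.04 (adjusted p = 5.39e-17) without overlap. Fas had 9.70, 12.1 and 14.7 CPM in 2% HS and 14.4, 18.2 and 20.1 CPM in SD, with 0.54 ± 0.09 (adjusted p = 2.48e-06) and overlap at the margin. Tnfrsf10b, the mouse TRAIL receptor, rose less, by 0.21 ± 0.07 (adjusted p = 0.0191), and this rested on SD replicate 5, the highest library at 38.3 CPM: without it the difference was 0.14 and no longer called.

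Of the 6 genes of metabolism, autophagy, signalling and vesicles, 4 rose and 1 fell. Zmat3, an RNA-binding zinc finger protein, showed the largest called rise of the 32, from 83.0, 87.4 and 90.8 CPM to 126, 130.4 and 151 CPM (0.62 ± 0.05, adjusted p = 1.17e-15). Trp53inp1, a cofactor of p53 that also acts in autophagy, rose from 63.6, 67.9 and 72.2 CPM to 85.8, 102 and 114 CPM (0.59 ± 0.05, adjusted p = 1.64e-13). Phlda3 rose by 0.44 ± 0.06 (adjusted p = 9.42e-07), from 124, 139.9 and 152 CPM to 173, 191 and 211 CPM. None of these 3 overlapped between groups. Dram1, a lysosomal membrane protein that promotes autophagy, rose by 0.34 ± 0.10 (adjusted p = 0.0056) from a median of 7.21 to 8.99 CPM, with overlap. Steap3, an endosomal iron reductase, fell by 0.38 ± 0.07 (adjusted p = 9.18e-06), and its 2% HS libraries at 29.9, 33.1 and 36.0 CPM lay above all SD libraries at 22.9, 24.8 and 27.8 CPM. Tigar, a regulator of glycolytic flux, was at 0.00 ± 0.10.

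Of the genes of DNA repair and nucleotide supply, 1 of 5 was higher and 1 lower, with a median of 0.13. Polk, a polymerase that copies past damaged bases, rose by 0.39 ± 0.08 (adjusted p = 0.000173), from 19.5, 22.2 and 25.2 CPM to 24.6, 29.7 and 32.7 CPM. Rrm2b, the p53-inducible subunit of ribonucleotide reductase, fell by 0.28 ± 0.05 (adjusted p = 3.16e-05), and its 2% HS libraries at 35.1, 37.7 and 40.4 CPM did not overlap with the SD libraries at 28.2, 31.2 and 33.5 CPM. Xpc and Ercc5, of nucleotide excision repair, differed by 0.13 ± 0.06 and 0.14 ± 0.05 (adjusted p = 0.0727 and 0.0579), though all SD libraries of Xpc exceeded those of 2% HS, and Ddb2, which recognises damaged bases, by -0.02 ± 0.10. On the opposite strand, Rrm2b and Ddb2 share 8.04% and 23.8% of their exon bases with Gm49085 and Acp2. The strand setting of the counting is not given in the sources used here, so reads of these overlaps cannot be assigned.

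**Figure D3:**
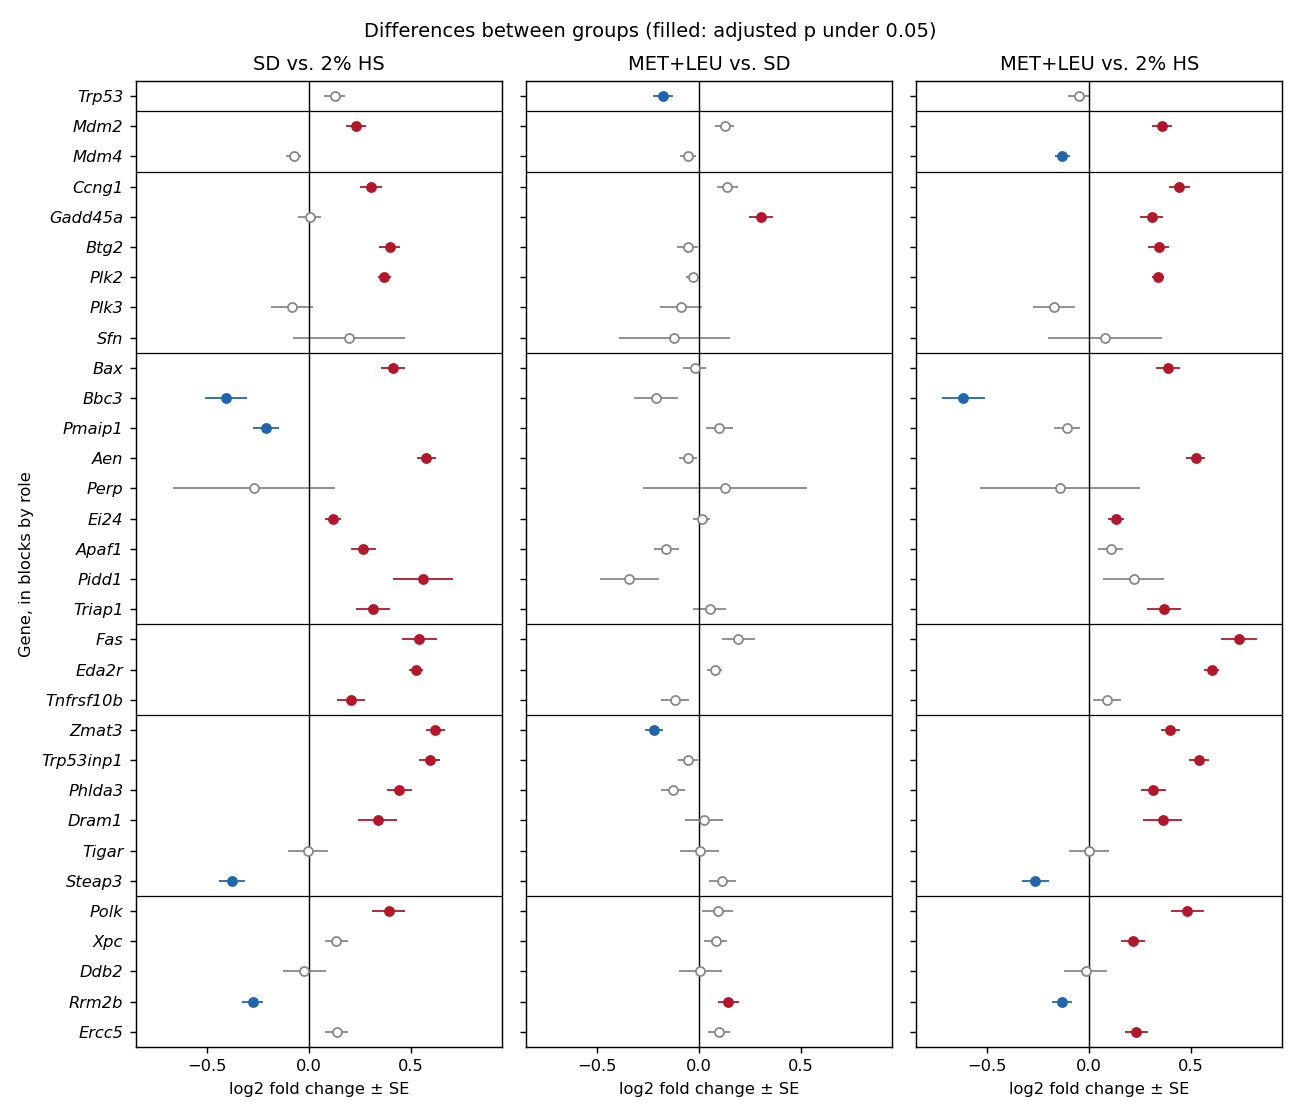
Log2 fold change with its SE for each gene in SD vs. 2% HS, MET+LEU vs. SD and MET+LEU vs. 2% HS, with genes in blocks by role, filled where the adjusted p was under 0.05 and coloured red for higher and blue for lower. The left and right panels hold 18 red and 4 blue points each, and the middle panel 2 of each.

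Between MET+LEU and SD, the share of these genes that was called did not exceed that of all genes. Of the 32 genes, 4 were called (12.5%; 18.4% of all genes tested were), 2 higher (10.6% of all genes) and 2 lower (7.8% of all genes), and 11 had an unadjusted p under 0.05 (34.4%; 31.2% of all genes). The median log2 fold change was 0.00 over the 32 genes. Without MET+LEU replicate 6, 1 gene was called higher and 2 lower, while 13.5% of all genes tested were called. All 10 dividing-cell markers were lower in MET+LEU, with summed levels of 141 to 175 CPM against 196 to 268 CPM in SD, and 5 of 12 myotube markers were higher. Their part in these results was not tested.

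Trp53 itself was reduced. Its lowest, median and highest values were 59.3, 70.0 and 72.9 CPM in MET+LEU and 69.2, 79.5 and 82.3 CPM in SD. MET+LEU replicate 6 was the lowest library, and the ranges of the groups overlapped. The difference was -0.18 ± 0.05 (adjusted p = 0.0102), a fall by 11.6%, and -0.15 without MET+LEU replicate 6 (adjusted p = 0.03). In a model of only these 2 groups it was no longer called (adjusted p = 0.0555). The study named Trp53 and Cdkn1a from these same libraries, so their direction here is not independent evidence.

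Zmat3 fell by 0.22 ± 0.04 (adjusted p = 0.000339), and its MET+LEU libraries at 105, 118 and 121 CPM all lay below the SD libraries at 126, 130.4 and 151 CPM. It was the only 1 of the 32 without overlap in this comparison (3.12%; 1.93% of all genes lay below and 3.41% above). Gadd45a rose by 0.30 ± 0.06 (adjusted p = 0.000248), from 110, 126 and 143 CPM in SD to 140.4, 163 and 170.1 CPM in MET+LEU. The groups overlapped only at the edge, between the lowest MET+LEU and the highest SD libraries. All MET+LEU libraries of Gadd45a also exceeded those of 2% HS. In Gadd45a 19.1% of the exon bases lie opposite to E230016M11Rik. Rrm2b rose by 0.14 ± 0.05 (adjusted p = 0.0459), with MET+LEU libraries at 30.2, 35.0 and 37.0 CPM overlapping SD, and this call was lost in 31 of the 40 alternatives, among them leaving out MET+LEU replicate 6 (adjusted p = 0.136).

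The inhibitors of p53 were not called in the fit of all libraries. Mdm2 had 140.1, 144 and 188 CPM in MET+LEU against 128, 138 and 149 CPM in SD, a difference of 0.13 ± 0.05 (adjusted p = 0.066). Replicate 6 of MET+LEU supplied the value of 188 CPM, with the next library at 149 CPM, and without it the difference was 0.05 ± 0.04 (adjusted p = 0.424). The difference was called without SD replicate 5 or 6 (0.14 each) and without MET+LEU replicate 3 (0.15), and with the replicate number as a block (0.12, adjusted p = 0.0275). Mdm4 was at 124, 136 and 141 CPM in MET+LEU and differed from SD by -0.06 ± 0.04 (adjusted p = 0.346), but was called with an offset for GC content (-0.12, adjusted p = 0.0131). None of the 9 apoptosis genes and none of the 3 receptor genes passed edgeR's test in the fit of all libraries, at -0.34 to 0.13 and -0.12 to 0.19 on the log2 scale. Apaf1, at -0.16 ± 0.06 (adjusted p = 0.0614), was called lower in 9 of the 40 alternatives at -0.20 to -0.16, among them DESeq2's Wald test (adjusted p = 0.0474), upper-quartile scaling, the GC offset, and without SD replicate 1 or 3, MET replicate 3 or 6, or MET+LEU replicate 4. Pidd1 was called without MET+LEU replicate 2 (-0.42) and Fas without MET+LEU replicate 3 (0.24). Of the other roles, Ccng1 was called higher in 5 alternatives (0.14 to 0.16: the replicate block, and without SD replicate 4, 5 or 6 or MET+LEU replicate 1), Trp53inp1 lower with the GC offset (-0.14) and Phlda3 lower without MET+LEU replicate 2 (-0.17). Bax, for example, differed by -0.02 ± 0.06, with a 95% interval of -0.14 to 0.09, and Aen by -0.05 ± 0.04.

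**Figure D4:**
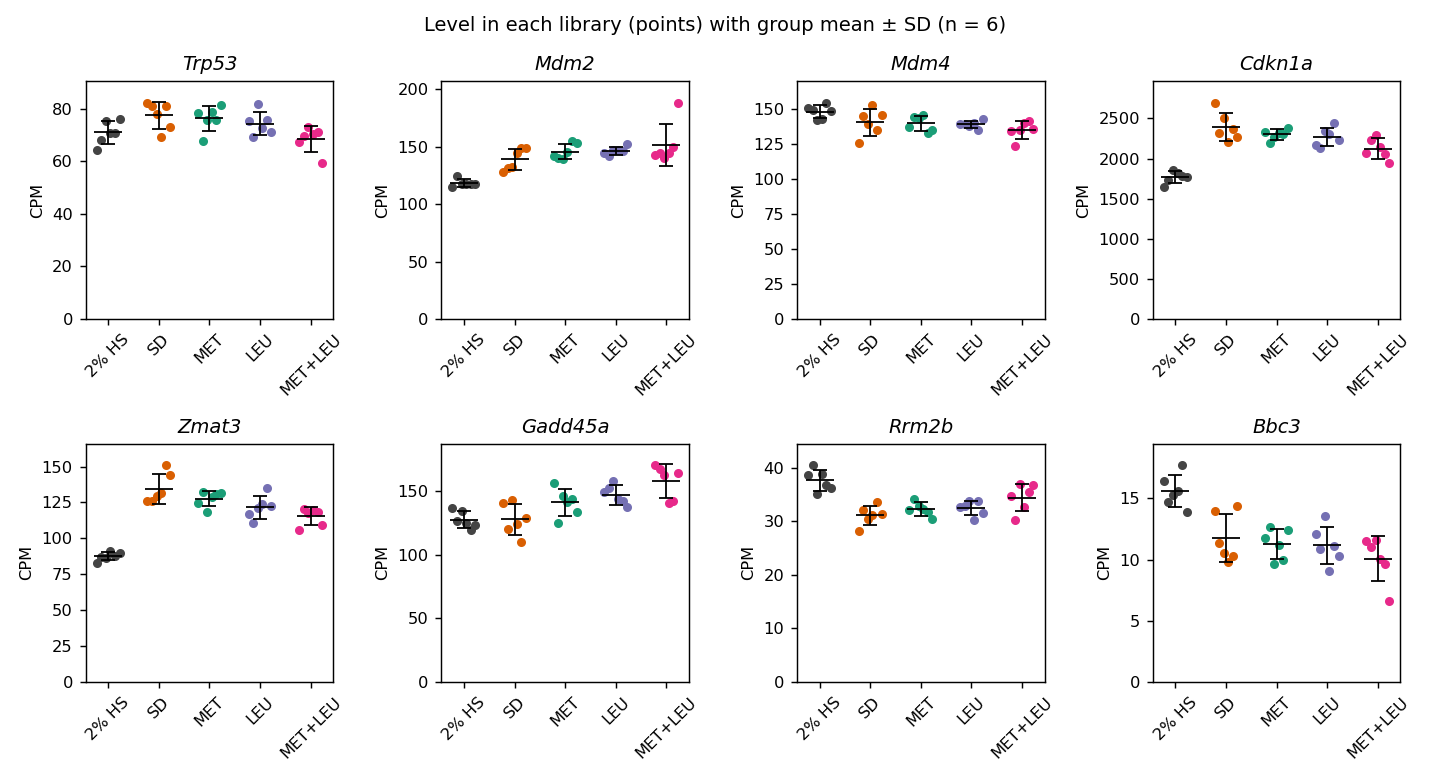
CPM of 8 genes in each library (points), with the mean and SD of the 6 libraries of a group as bars and the axis starting at 0. Zmat3 and Cdkn1a lie highest in SD and lowest in 2% HS, Gadd45a highest in MET+LEU, and 1 MET+LEU library of Mdm2 sits at 188 CPM.

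Set against cells kept in serum, MET+LEU showed 18 of the 32 genes higher (56.2%; 22.1% of all genes tested) and 4 lower (12.5%; 20.3% of all genes), 22 in all (68.8%; 42.3% of all genes), with a median of 0.23. The same number had an unadjusted p under 0.05 (49.4% of all genes). All MET+LEU libraries lay above all 2% HS libraries in 12 genes (37.5%; 11.5% of all genes) and below in 3 (9.38%; 9.51% of all genes). This comparison shares its 2% HS libraries with SD vs. 2% HS and its MET+LEU libraries with MET+LEU vs. SD, so the values are given side by side and not as a further line of evidence. Fibroblast markers were called higher in 4 of 5 here (5279 to 5761 CPM in MET+LEU) and dividing-cell markers lower in 9 of 10, while of the 12 myotube markers 5 were higher and 3 lower. Their part in these differences was not tested.

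The receptor genes Fas and Eda2r stood highest. Fas was 0.74 ± 0.09 above 2% HS in MET+LEU (adjusted p = 1.41e-09) and 0.54 above it in SD, with MET+LEU libraries at 17.3, 21.02 and 22.5 CPM, and Eda2r was 0.60 ± 0.04 above (adjusted p = 3.73e-19) and 0.53 in SD. Tnfrsf10b was not called in MET+LEU vs. 2% HS (0.09 ± 0.07). Of the apoptosis genes, Aen (0.52 ± 0.05), Bax (0.39 ± 0.06), Triap1 (0.37 ± 0.08) and Ei24 (0.13 ± 0.04) were higher with adjusted p of 3.03e-13, 5.48e-07, 0.000406 and 0.00674. Bbc3 fell by 0.62 ± 0.11 (adjusted p = 4.76e-06), and its MET+LEU libraries at 6.64, 10.5 and 11.6 CPM lay below all 2% HS libraries. Without MET+LEU replicate 6, the lowest library, the Bbc3 difference was -0.54. Pmaip1 (-0.11 ± 0.06), Apaf1 (0.11 ± 0.06) and Pidd1 (0.22 ± 0.15) did not pass here.

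In the growth arrest genes, Ccng1 (0.44 ± 0.05), Btg2 (0.34 ± 0.05), Plk2 (0.34 ± 0.03) and Gadd45a (0.31 ± 0.06) were above 2% HS, with adjusted p of 1.16e-08, 7.05e-07, 1.29e-12 and 4.05e-05. Trp53inp1 (0.54 ± 0.05), Zmat3 (0.40 ± 0.05), Dram1 (0.36 ± 0.10) and Phlda3 (0.31 ± 0.06) were above it too, with adjusted p of 2.2e-12, 6.42e-10, 0.00189 and 0.000109. Phlda3 was at 0.37 without MET+LEU replicate 6. Zmat3 thus remained higher than in serum despite its fall from SD. Steap3 was lower by -0.26 ± 0.06 (adjusted p = 0.000876) and Rrm2b by -0.13 ± 0.05 (adjusted p = 0.0312, lost in 6 alternatives, among them leaving out 2% HS replicate 2 at -0.12 or MET+LEU replicates 2 and 4 in turn at -0.11 and -0.13). The repair genes Polk (0.48 ± 0.08), Ercc5 (0.23 ± 0.05) and Xpc (0.22 ± 0.06) were higher, with adjusted p of 3.88e-06, 0.000501 and 0.00184. Without MET+LEU replicate 6 their differences were 0.40, 0.20 and 0.17.

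In the core loop, Mdm2 was 0.36 ± 0.05 above 2% HS (adjusted p = 8.35e-08, and 0.28 without MET+LEU replicate 6), Mdm4 fell by 0.13 ± 0.04 (adjusted p = 0.00477), and Trp53 differed by -0.05 ± 0.05 (adjusted p = 0.438). The MET+LEU libraries of Mdm2 all lay above and those of Mdm4 all below the 2% HS libraries, whereas those of Trp53 overlapped. The 95% interval of the Trp53 difference ran from -0.15 to 0.05.

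Either compound alone left no member called against SD. In MET vs. SD, 0 of 32 genes passed edgeR's adjusted threshold (0.157% of all genes tested did, 0.0754% higher and 0.0817% lower) and 4 had an unadjusted p under 0.05 (12.5%; 10% of all genes), namely Pmaip1 (0.17 ± 0.06), Gadd45a (0.14 ± 0.06), Trp53inp1 (0.12 ± 0.05) and Pidd1 (-0.35 ± 0.14), and DESeq2 called 0 as well. Trp53 differed by -0.02 ± 0.05, Mdm2 by 0.07 ± 0.05 and Mdm4 by -0.01 ± 0.04 (adjusted p = 0.934, 0.674 and 0.976), and the sign for Trp53 and Mdm4 turned under some alternatives. In LEU vs. SD, 0 of 32 passed (0.553% of all genes, 0.233% higher and 0.321% lower), 3 had an unadjusted p under 0.05 (9.38%; 9.98% of all genes), Gadd45a (0.20 ± 0.06), Zmat3 (-0.14 ± 0.04) and Ei24 (-0.10 ± 0.04), and DESeq2 called Gadd45a alone (adjusted p = 0.0352), as did edgeR without SD replicate 3 (0.24). The libraries of both groups overlapped for all 32 genes in either comparison, where 0.346% and 0.786% of all genes lay wholly above SD and 0.371% and 0.522% wholly below. Trp53 differed by -0.06 ± 0.05, Mdm2 by 0.08 ± 0.05 and Mdm4 by -0.01 ± 0.04 (adjusted p = 0.768, 0.643 and 0.953), with the sign for Mdm4 turning without SD replicate 4 or 6. These comparisons and MET+LEU vs. SD all share the SD libraries. In LEU vs. SD, dividing-cell markers were called lower in 4 of 10, with summed levels of 157 to 194 CPM against 196 to 268 CPM in SD. Of 12 myotube markers 1 was higher, and of 5 fibroblast markers 1 was lower. In MET vs. SD, 0 of these markers were called. Their part in these results was not tested. Side by side, the mean CPM of Gadd45a was 128 with SD, 141 with MET, 147 with LEU and 158 with MET+LEU, and Zmat3 had means of 135, 128, 122 and 115 CPM. Neighbouring groups in both orders overlapped in their libraries, and the interaction of MET and LEU was -0.04 ± 0.08 for Gadd45a and 0.00 ± 0.06 for Zmat3.

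When LEU was added to MET, that is in MET+LEU vs. MET, 3 of 32 genes were lower (9.38%; 3.15% of all genes tested; 8.69% in either direction) and 0 higher (5.54% of all genes), and 8 had an unadjusted p under 0.05 (25%; 22.6% of all genes). Without MET+LEU replicate 6 the share of all genes called was 4.52%. Dividing-cell markers were lower in 9 of 10 (median -0.53) and myotube markers higher in 5 of 12, and their part in these results was not tested. Trp53inp1 fell by 0.17 ± 0.05 (adjusted p = 0.0218), from 104, 111 and 118 CPM in MET to 94.6, 97.4 and 107 CPM in MET+LEU. Trp53 fell by 0.16 ± 0.05 (adjusted p = 0.0438) from 67.7, 77.0 and 81.5 CPM in MET, and Zmat3 by 0.15 ± 0.04 (adjusted p = 0.0301) from 119, 130.007 and 132 CPM. Libraries of both groups overlapped in all 32 genes (2.48% of all genes lay wholly above and 1.28% wholly below), and the calls depended on single libraries and on the fit: 0 were left without MET replicate 4, 1 (Trp53inp1) without MET+LEU replicate 1 or replicate 6, and 5 without MET+LEU replicate 4. The Trp53 call was also lost without MET replicate 1 (-0.16), 3 (-0.17) or 6 (-0.15), and that of Zmat3 without MET replicate 2 (-0.15). The Trp53 call was lost as well in a model of only these groups (adjusted p = 0.0845) and without edgeR's robust option (adjusted p = 0.0519). In other alternatives Apaf1 was called lower (9 of 40, DESeq2 among them, -0.21 to -0.18), Gadd45a higher (4, 0.16 to 0.19) and Xpc higher (1, 0.21). Mdm2 differed by 0.05 ± 0.05 and by -0.02 without MET+LEU replicate 6, and Mdm4 by -0.05 ± 0.04 (adjusted p = 0.541 and 0.482).

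When MET was added to LEU, 0 of 32 genes were called in MET+LEU vs. LEU (6.28% of all genes tested, 4.61% higher and 1.67% lower), and 5 had an unadjusted p under 0.05 (15.6%; 21.5% of all genes). Without MET+LEU replicate 6, 2.85% of all genes were called. Dividing-cell markers were lower in 2 of 10 and, without that library, in 0. DESeq2 called 1, Xpc at 0.16 (adjusted p = 0.0471), and edgeR called Xpc without MET+LEU replicate 3 (0.22) and Ccng1 without SD replicate 1 (0.15) or MET+LEU replicate 1 (0.18). No gene of the 32 was free of overlap (2.73% of all genes lay wholly above and 0.861% wholly below). Trp53 differed by -0.12 ± 0.05, Mdm2 by 0.05 ± 0.05 and Mdm4 by -0.04 ± 0.04 (adjusted p = 0.158, 0.63 and 0.581), and Mdm2 was at -0.03 without MET+LEU replicate 6. The interaction, which measures how far the combination departed from the sum of both compounds, was called for 0 of 32 genes (0.0503% of all genes, 0.0377% higher and 0.0126% lower) by edgeR, and 4 had an unadjusted p under 0.05 (12.5%; 8.73% of all genes). Trp53, Mdm2 and Mdm4 departed by -0.10 ± 0.07, -0.02 ± 0.07 and -0.03 ± 0.05 (adjusted p = 0.743, 0.954 and 0.901). Without MET+LEU replicate 6, Mdm2 departed by -0.10 ± 0.05 (adjusted p = 0.64).

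**Figure D5:**
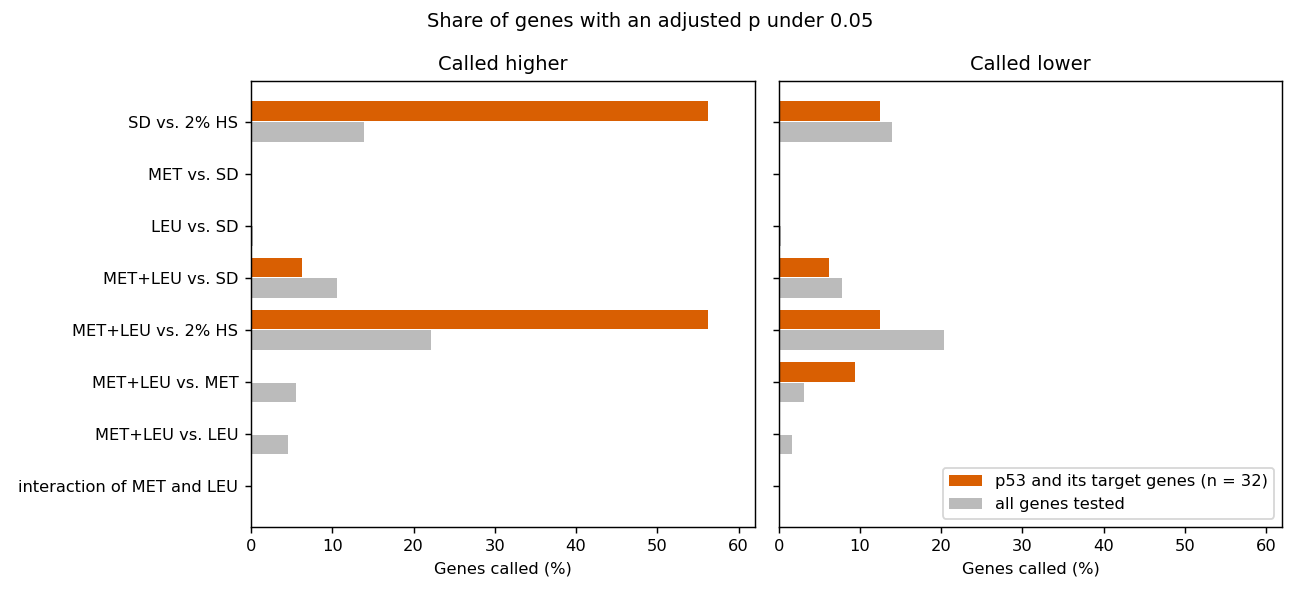
Share of the 32 genes (orange) and of all genes tested (grey) with an adjusted p under 0.05, higher on the left and lower on the right, in each of the 8 comparisons. For higher genes the orange bar reaches 56.2% in both comparisons with 2% HS, and 6.25% when MET+LEU is compared with SD.

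Cdkn1a (p21), the best known p53 target, was far more abundant than any of the 32 genes, at 497 CPM per kb in 2% HS and 674 CPM per kb in SD. Its levels were 1643, 1773 and 1857 CPM in 2% HS, 2211, 2339 and 2696 CPM in SD and 1939, 2107 and 2293 CPM in MET+LEU. Every serum-free library exceeded those of 2% HS, while MET+LEU overlapped with SD. Cdkn1a rose by 0.44 ± 0.04 in SD vs. 2% HS (adjusted p = 5.13e-12), fell by 0.17 ± 0.04 in MET+LEU vs. SD (adjusted p = 0.00236) and remained 0.27 ± 0.04 above 2% HS in MET+LEU (adjusted p = 9.24e-07). In MET vs. SD, LEU vs. SD, MET+LEU vs. MET and MET+LEU vs. LEU it differed by -0.06, -0.08, -0.12 and -0.10 (adjusted p = 0.698, 0.558, 0.0685 and 0.162), and the interaction was -0.04 (adjusted p = 0.899).

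Of a second list of 40 p53 target genes, Cdkn1a among them, 37 were tested. In SD vs. 2% HS, 15 were higher (40.5%; 13.9% of all genes) and 3 lower (8.11%; 13.9% of all genes), with a median of 0.17. Among the largest called differences were those of Ndrg1 (-1.55 ± 0.19, from a mean of 386 to 132 CPM), a hypoxia-inducible gene, Gdf15 (-1.24 ± 0.21), a stress cytokine, Tap1 (1.11 ± 0.19), the peptide transporter of antigen presentation, and Psrc1 (0.90 ± 0.10), a protein of the mitotic spindle. None of these 4 overlapped between the groups, and Ndrg1 and Gdf15 are also targets of other pathways.

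In MET+LEU vs. SD, 6 genes of this second list were higher (16.2%; 10.6% of all genes) and 11 lower (29.7%; 7.8% of all genes), with 5 higher and 12 lower without MET+LEU replicate 6. The largest called differences were Gtse1 (-0.67 ± 0.11), which holds p53 back in G2, Slc19a2 (-0.44 ± 0.07), a thiamine transporter, Ckap2 (-0.38 ± 0.11), a spindle protein, Lif (-0.35 ± 0.09), a cytokine, and Rps27l (0.31 ± 0.04), a ribosomal protein variant. Gtse1 and Ckap2 are genes of dividing cells, and the dividing-cell markers were lower in the same comparison, as given above. Gtse1 had 8.30, 9.88 and 10.6 CPM in SD and 4.86, 6.03 and 6.83 CPM in MET+LEU, without overlap.

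Kinases, modifiers and binding partners of p53 were listed separately, and 37 of 38 were tested. The gene left out was Cdkn2a, whose product ARF keeps Mdm2 from p53: it had 0 counts in all 30 libraries. Counts do not show whether Cdkn2a was silent or missing from the genome of these cells. In SD vs. 2% HS, 9 were higher (24.3%; 13.9% of all genes) and 1 lower (2.7%; 13.9% of all genes), with a median of 0.03. In either direction, 27.8% of all genes were called. Largest among the called differences were Atr (-0.33 ± 0.05), the kinase of the replication checkpoint, Hdac1 (0.29 ± 0.06), Topors (0.23 ± 0.06), Rpl11 (0.21 ± 0.06) and Rpl23 (0.20 ± 0.07). In MET+LEU vs. SD, 9 were higher (24.3%; 10.6% of all genes) and 3 lower (8.11%; 7.8% of all genes), 6 and 3 without MET+LEU replicate 6. Rpl23 rose by 0.54 ± 0.07 and Rpl11 by 0.35 ± 0.06, both ribosomal proteins that can bind and block Mdm2, and Npm1, a nucleolar partner of ARF, rose by 0.30 ± 0.05. The paper reports genes of ribosomal subunits and ribosome biogenesis among the most changed transcripts of this comparison. Whether the rises of Rpl23, Rpl11 and Rps27l belong to that wider change was not tested. Chek1, the checkpoint kinase, fell by 0.49 ± 0.13, and Trim28, a co-repressor that works with Mdm2, fell by 0.23 ± 0.05. Rpl23 had 258, 307 and 360 CPM in SD and 385, 431 and 552 CPM in MET+LEU, without overlap.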

How the data were processed

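RNA was measured in 30 libraries of C2C12 myotubes, 5 groups of 6, made from ribosomal RNA-depleted total RNA with a stranded kit and 150 × 150 bp reads. The authors deposited raw counts per Ensembl gene, whole numbers without normalization. The submitters' processing notes name STAR 2.7.6a, cutadapt 1.16, featureCounts 1.6.3, DESeq2 1.30.1 and GRCm38. The annotation release, the strand setting and the treatment of reads that map to several places are not given in the sources used here. The processed pseudogenes Trp53-ps and Mdm4-ps had at most 4 counts in a library.

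Symbols, coordinates and exon lengths came from GENCODE M21 (GRCm38), which matched 55227 of 55487 identifiers. The members and gene lists were chosen with earlier results of these data known. In R 4.3.3, edgeR 4.0.16 filterByExpr (minimum count 10, minimum total 15) left 15907 genes. TMM factors scaled the totals, and glmQLFit (robust) fitted 1 mean per group to the 30 libraries together before glmQLFTest, with Benjamini-Hochberg adjustment over all genes. The SE is the absolute log2 fold change divided by the square root of F. CPM used the TMM-scaled totals, and CPM per kb was divided by the merged exon length. The text names every member past the threshold, Trp53, Mdm2, Mdm4 and Cdkn1a in each comparison, and the 5 largest called differences of 2 further lists in SD vs. 2% HS and MET+LEU vs. SD, except 1 gene that is not reported here. Members that missed the threshold, and the further genes given an example value, were picked with values in view. The main edgeR fit and DESeq2's Wald test were first run on simulated counts. The changes planted there, in MET+LEU, had a single size, larger than any called difference of a member in MET+LEU vs. SD. Smaller changes and the other alternatives were not simulated.

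The alternatives were DESeq2's size factors, upper-quartile scaling, DESeq2 1.42.0 (Wald test), genes with more than 5 counts in total or at least 10 in each of the libraries, a fit restricted to the groups at hand, a block for the replicate number, no robust option, a threshold of 0.01, an offset for GC content, and leaving out each library. No pair of libraries of the same group agreed within sampling noise, and pairs across groups were not checked. Promoter windows came from RefSeq (GRCm38.p6).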

Additional observations from a re-analysis of the deposited data

Results flagged for a closer look

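Within the 160 combinations of a gene and a group, 8 held a library whose gap to the nearest of the others was large for 6 samples by Dixon's criterion, and chance flags about 1 group in 20. Of these, 3 were in the MET+LEU replicate 6 library, which also had the highest ribosomal RNA share: Mdm2 at 188 CPM (the next library was at 149), Bax at 36.0 CPM (next 41.7) and Btg2 at 43.4 CPM (next 51.6). In 2% HS replicate 2, Mdm2 was at 125 CPM (next 118) and Ercc5 at 42.3 CPM (next 38.0). The others were Dram1 at 8.64 CPM in 2% HS replicate 6 (next 7.46), Tigar at 10.1 CPM in MET replicate 4 (next 9.05) and Ercc5 at 49.6 CPM in MET replicate 6 (next 44.1).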

How the results depend on the processing

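Of 51 called differences, 42 stayed called in the same direction under all 40 alternatives, 9 were lost under at least 1 and 0 reversed. The cause of each change below was not tested. With the replicate number as a block, 1 gene was called in LEU vs. SD (Gadd45a) and 1 in MET+LEU vs. LEU (Ccng1), and no other count of calls moved by over 1.5 times. Same-numbered libraries of different groups had a mean correlation of 0.0157 (2 of 60 pairs over 0.1), others of -0.00314 (11 of 300 pairs). Of 30 libraries, 9 correlated best with their own number. These values do not decide whether the numbers pair the samples. DESeq2's Wald test called 1 gene in LEU vs. SD and 1 in MET+LEU vs. LEU. A model of only the groups compared called 1 in LEU vs. SD and 2 in MET+LEU vs. SD. A threshold of 0.01 left 2 in MET+LEU vs. SD and 0 in MET+LEU vs. MET. With at least 10 counts in every library the median in MET+LEU vs. 2% HS was 0.26. In MET vs. SD the small difference of Mdm4 turned to 0.00054 with genes over 5 counts in total, and that of Trp53 to 0.00030 with the GC offset.

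Leaving out each library in turn gave counts of 0 to 1 in LEU vs. SD and in MET+LEU vs. LEU, and 0 to 5 in MET+LEU vs. MET. Medians ran over 0.17 to 0.25 in SD vs. 2% HS, -0.039 to -0.00064 in LEU vs. SD, -0.045 to 0.0068 in MET+LEU vs. SD, 0.20 to 0.26 in MET+LEU vs. 2% HS, -0.037 to 0.017 in MET+LEU vs. MET, 0.010 to 0.057 in MET+LEU vs. LEU and -0.018 to 0.030 in the interaction. The sign turned in MET vs. SD for Trp53 (-0.049 to 0.014) and Mdm4 (-0.036 to 0.023), in LEU vs. SD for Mdm4 (-0.043 to 0.016), and for Mdm2 in MET+LEU vs. MET (-0.023 to 0.076) and MET+LEU vs. LEU (-0.031 to 0.069). Depth limits Perp, Sfn and Pidd1, and 6 genes had a coefficient of variation over 15% in some group.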
